A study of Homo sapiens with 6 samples.

Results

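The elastic fibre and microfibril genes followed here after ZNF469 knockdown in human lung fibroblasts are ELN (elastin), FBN1 and FBN2 (fibrillins), FBLN1, FBLN2, FBLN5, EFEMP1 and EFEMP2 (fibulins), and MFAP2 and MFAP5 (microfibril-associated glycoproteins). The rule that picked them was a list of gene symbols, and they make up 10 of the 23754 features in the deposited table. Of the 10, 0 passed an FDR of 0.05 with edgeR in either direction, where 1.12% of all features tested did, so a count of 0 is near that background. For 8 of the 10, the 95% interval of the log2 fold change lay between −0.13 and 0.13, and the other 2, MFAP2 and MFAP5, had too few counts for a narrow interval.

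The cells were IMR-90, an established line grown from fetal human lung. Both groups carried the same Tet-pLKO-puro vector with the inducible sh-2 hairpin against ZNF469 and came from a line selected with 0.5 µg/mL puromycin. DOX+ cells received 2 µg/mL doxycycline for 4 days (3 libraries, titled Sh-ZNF469), and DOX- cells received none (3 libraries, titled Control, for which the labels give the genotype as wild-type). Doxycycline and hairpin induction went together in every DOX+ library and cannot be told apart here, and the RNA came from 1 hairpin in 1 cell line. The submitted description calls the libraries technical replicates, so p-values measure only the spread between these libraries.

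Elastic fibres give lung tissue its recoil. Fibroblasts secrete fibrillins, which assemble into microfibrils, and tropoelastin, the soluble product of ELN, is laid down on this scaffold with the help of fibulins and is then crosslinked by lysyl oxidases. Microfibrils also bind latent TGF-β through its binding proteins, so the same structures take part in growth factor storage. Most elastin in the lung is made around birth, and fetal lung fibroblasts are among the cells that make it.

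Each library held 34057675 to 36120260 counts. The 10 genes took between 0.205% and 0.214% of the counts in each library, and the lowest and the highest of these shares were both in DOX+ libraries. ZNF469, the targeted gene, stood at 118, 112 and 126 CPM (counts scaled to library size and by the TMM method) in DOX- replicates 1, 2 and 3. In DOX+ replicates 1, 2 and 3 it stood at 80.4, 80.4 and 79.6 CPM. Its log2 fold change was −0.57 (95% interval −0.67 to −0.46, edgeR adjusted p = 3.31e-05), and the groups did not overlap. Of 13991 features tested with edgeR, 56 were higher and 100 lower in DOX+ cells at an FDR under 0.05. These 156 are 1.12% of the features tested, or 0.400% higher and 0.715% lower. Scaling by library size alone gave 88 higher and 77 lower. All 8 fibroblast markers were detected, and their summed level was 36476 to 37586 CPM in DOX- and 27101 to 27992 CPM in DOX+ libraries. Of the 8, COL1A1, COL1A2, COL3A1, DCN and LUM were lower in DOX+ cells at an FDR under 0.05, while PDGFRA, THY1 and VIM did not pass. Among markers of other cell types, SFTPC, KRT5 and NKX2-1 (epithelium), PECAM1 and CDH5 (endothelium), and CD3E and LYZ (immune cells) had 0 counts in every library, and the summed level of the epithelial, endothelial and immune lists was at most 0.472, 0.911 and 0.287 CPM. The 4 smooth muscle markers (MYH11, DES, ACTG2 and SMTN) summed to 713 to 737 CPM in DOX- and 715 to 772 CPM in DOX+ libraries. ACTG2 had the highest mean of the 4, and the highest value of a single marker in a library was 587 CPM. DOX+ replicate 2 stood apart on the first principal component (score 32.8, the rest −12.6 to 0.524). Without it the log2 fold change of each of the 10 genes still failed an FDR of 0.05. In bulk RNA, fewer cells of a type and less RNA per cell cannot be told apart.

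All 10 genes passed the filter on low counts. At an FDR under 0.05 edgeR called 0 of the 10 (background 1.12%), and 0 had an unadjusted p under 0.05, where 15.0% of all features did. DESeq2 called 0 of the 10 at an adjusted p under 0.05, where it called 266 of all features higher and 265 lower. It gave no adjusted p for MFAP2 and MFAP5. At an unadjusted p under 0.05 DESeq2 also had 0 of the 10, but the share over all features was not worked out for it. The log2 fold change was above 0 for 5 of the 10 genes and below 0 for 5, where 49.3% of all features were above 0. The median log2 fold change of the 10 was −0.0079, and that of all features tested was −0.0019. The background for narrow intervals depends on abundance. An interval within 0.25 of 0 was found for 8 of the 10 genes and for 46.9% of all features, but for 91.3% of the 3592 features at least as abundant as FBLN2, the lowest of these 8, so in this respect the 8 were like other genes of their level. Among these 3592 features, edgeR called 100, or 2.78%, and the smallest absolute log2 fold change called was 0.099.

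**Figure D1:**
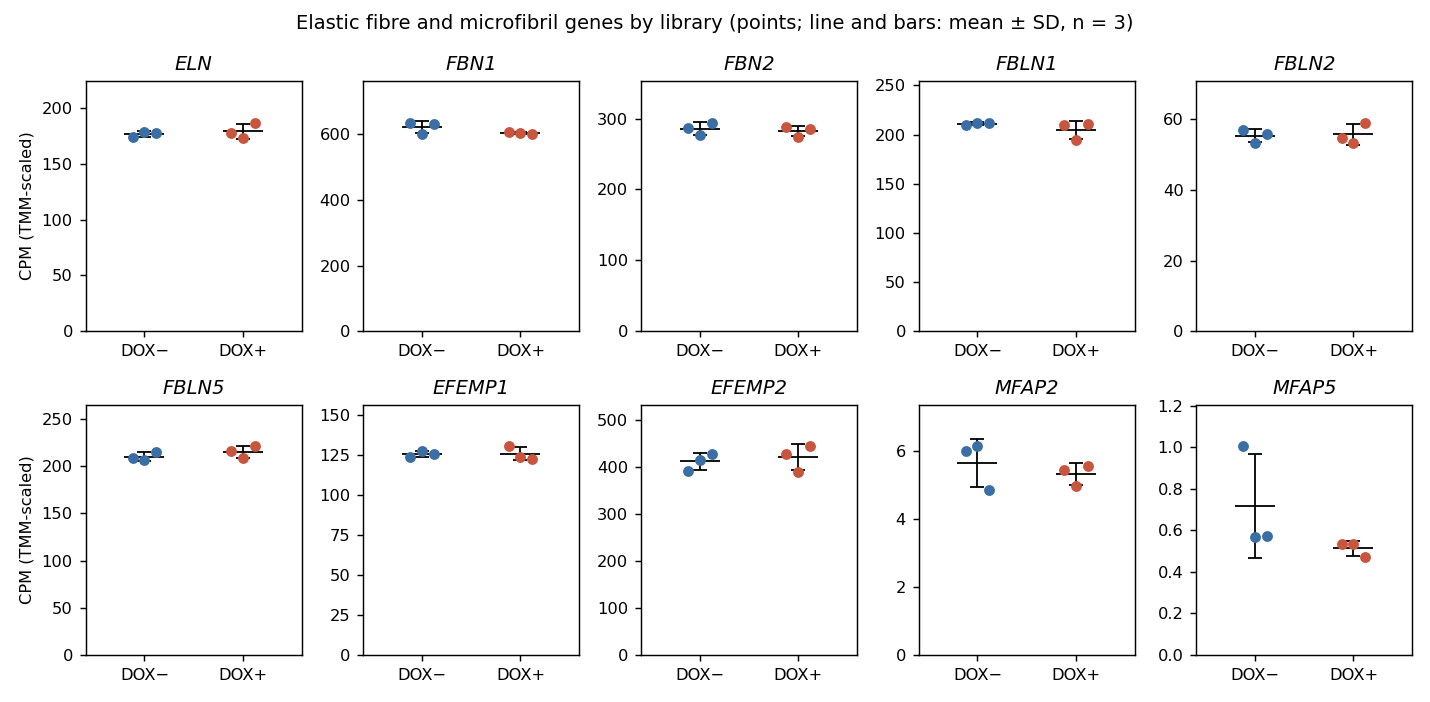
Level of each gene in CPM scaled by the TMM method, in the 3 DOX- and 3 DOX+ libraries (points), with the mean and SD as a line and bars; each vertical axis starts at 0. The groups overlap in every panel except MFAP5, where DOX- replicate 1 stands at 1.00 CPM and the other 5 libraries lie between 0.469 and 0.573 CPM.

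The elastin gene differed between the groups by less than the spread of the DOX+ libraries. ELN (ENSG00000049540, chromosome 7 of GRCh38, 74027789 to 74069907, plus strand) has 33 exons in its canonical transcript, which codes for 724 residues, and 35 transcripts are annotated, so the gene-level count sums over splice forms. It was measured at 174, 179 and 178 CPM in DOX- replicates 1, 2 and 3. The DOX+ libraries, in the same order, gave 177, 173 and 187 CPM. The lowest and the highest values were both DOX+ libraries, so the DOX- values lay inside the DOX+ range. The means were 177 ± 2.62 CPM (SD, n = 3) in DOX- and 179 ± 7.05 CPM (SD, n = 3) in DOX+ cells. The log2 fold change was 0.019 (95% interval −0.066 to 0.10, edgeR adjusted p = 0.87), so a fall below 95.5% or a rise above 108% of the DOX- level lay outside the interval. It was 0.044 without DOX+ replicate 2 and turned to −0.012 without DOX+ replicate 3.

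The fibrillins, large glycoproteins that polymerise end to end into the microfibril scaffold, did not pass the test either. FBN1, the main fibrillin of postnatal tissue and the gene mutated in Marfan syndrome, lies on the minus strand of chromosome 15 of GRCh38 from 48408313 to 48645721. FBN2, whose product is prominent in fetal microfibrils and which is mutated in congenital contractural arachnodactyly, lies on the minus strand of chromosome 5 from 128257909 to 128659185. Their canonical transcripts have 66 and 65 exons and code for 2871 and 2912 residues. The 250 bases before the RefSeq start of each (GRCh38.p14, minus strand, written 5′ to 3′) are shown because the pair makes the same scaffold from separate loci at unequal levels, with matches to the GC box GGGCGG or its reverse complement CCGCCC in capitals.
FBN1, chr15:48644971-48645220: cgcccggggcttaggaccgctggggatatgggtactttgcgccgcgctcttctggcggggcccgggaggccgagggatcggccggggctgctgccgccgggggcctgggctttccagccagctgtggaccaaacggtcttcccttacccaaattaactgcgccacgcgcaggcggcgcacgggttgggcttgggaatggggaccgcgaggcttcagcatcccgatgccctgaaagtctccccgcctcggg
FBN2, chr5:128538246-128538495: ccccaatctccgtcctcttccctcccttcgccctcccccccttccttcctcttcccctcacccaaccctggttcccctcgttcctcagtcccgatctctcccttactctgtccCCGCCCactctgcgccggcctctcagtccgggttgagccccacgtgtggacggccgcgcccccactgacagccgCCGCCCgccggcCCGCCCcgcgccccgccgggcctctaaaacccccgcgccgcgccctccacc
The FBN1 window had 0 such matches and the FBN2 window 3. Both windows lie inside the gene spans given above, which reach further upstream than the RefSeq starts used. A match occurred in 42.6% of 35116 RefSeq promoter windows of this length. Guanine and cytosine made up 69.6% of the FBN1 window and 72.8% of the FBN2 window, against a median of 58% over all windows. The RNA data do not bear on what binds there.

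FBN1 was measured at 635, 601 and 631 CPM in DOX- replicates 1, 2 and 3. The 3 DOX+ libraries gave 606, 603 and 602 CPM. DOX- replicate 2 lay just below the 3 DOX+ libraries and the other DOX- libraries lay above them, so the groups overlapped by this library alone. The log2 fold change was −0.044 (95% interval −0.11 to 0.022, edgeR adjusted p = 0.53), the smallest adjusted p among the 10 genes. It was −0.067 without DOX- replicate 2 and −0.028 without DOX- replicate 1. FBN2 was measured at 287, 277 and 294 CPM in the DOX- libraries and at 288, 274 and 286 CPM in the DOX+ libraries, in replicate order. The ranges overlapped almost wholly, and the log2 fold change was −0.016 (95% interval −0.096 to 0.063, edgeR adjusted p = 0.88). Its sign turned to 0.0045 with library size scaling, to 0.0053 without DOX- replicate 3 and to 0.0067 without DOX+ replicate 2.

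The fibulins are shorter calcium-binding glycoproteins with EGF-like repeats. Fibulin-4 (EFEMP2) and fibulin-5 (FBLN5) bind tropoelastin and lysyl oxidases and are needed for elastic fibre assembly. EFEMP2 (chromosome 11, 65866441 to 65873592, minus strand) was measured at 392, 417 and 429 CPM in DOX- replicates 1, 2 and 3. In DOX+ replicates 1, 2 and 3 it was measured at 428, 390.3 and 444 CPM. DOX+ libraries held both the lowest and the highest value. The log2 fold change was 0.030 (95% interval −0.073 to 0.13, edgeR adjusted p = 0.81), with 0.083 without DOX+ replicate 2, −0.0056 without DOX- replicate 1 and −0.010 without DOX+ replicate 3. EFEMP2 overlaps MUS81 on the opposite strand, and the library kit named in the study's methods does not mark strand, so reads from the shared stretch cannot be told apart by strand. MUS81 had 1176 to 1328 counts per library, against 13261 to 16098 for EFEMP2. ELN, FBN1, FBN2, MFAP2 and MFAP5 also overlap annotated genes. Of the genes overlapping them, only SLC27A6, over FBN2, was found among the features counted, at 0 to 8 counts per library.

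FBLN5 (chromosome 14, 91869411 to 91947987, minus strand) was measured at 209, 206 and 215 CPM in DOX- replicates 1, 2 and 3. Its DOX+ values were 216, 208 and 221 CPM. On this scale 2 of the 3 DOX+ libraries lay above every DOX- library. The log2 fold change was 0.033 (95% interval −0.048 to 0.11, edgeR adjusted p = 0.73), with 0.056 without DOX+ replicate 2 and 0.013 without DOX+ replicate 3. In the authors' FPKM values, which also divide by transcript length, the FBLN5 groups did not overlap, at 80.3 to 82.2 in DOX- and 83.3 to 87.0 in DOX+ libraries. The FPKM difference was 0.062 on the log2 scale and did not pass the test either (limma adjusted p = 0.46). MFAP5 also had no overlap between groups in FPKM. In CPM, the groups did not overlap for 20.3% of all features tested. That share was not worked out for FPKM, so the FBLN5 separation cannot be told from background.

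The other fibulins had intervals of similar width. FBLN1 (fibulin-1; chromosome 22, 45502238 to 45601135, plus strand), found on elastic fibres and in basement membranes, was measured at 209.8, 212 and 212 CPM in the DOX- libraries. In DOX+ replicates 1, 2 and 3 it was measured at 209.6, 194 and 210.5 CPM. DOX+ replicate 2 was lowest, and the log2 fold change of −0.045 (95% interval −0.13 to 0.041, edgeR adjusted p = 0.64) became −0.0069 without it. FBLN2 (fibulin-2; chromosome 3, 13549125 to 13638422, plus strand), a binding partner of fibrillin and basement membrane proteins, was measured at 57.0, 53.3 and 55.8 CPM in DOX- libraries and at 54.8, 53.2 and 59.0 CPM in DOX+ libraries, in replicate order. The DOX- values lay inside the DOX+ range, and the log2 fold change was 0.0088 (95% interval −0.10 to 0.12, edgeR adjusted p = 0.95), with 0.041 without DOX+ replicate 2 and −0.034 without DOX+ replicate 3. EFEMP1 (fibulin-3; chromosome 2, 55865967 to 55924139, minus strand), a secreted fibulin of connective tissue and the retina, was measured at 124, 127 and 126 CPM in DOX- and 130.3, 124 and 123 CPM in DOX+ libraries, in replicate order. Its log2 fold change of 0.00045 was the nearest to 0 of the 10 (95% interval −0.086 to 0.087, edgeR adjusted p = 0.998). The signs of FBLN2 and EFEMP1 depended on which libraries were used.

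MFAP2 and MFAP5 code for the small microfibril-associated glycoproteins MAGP-1 and MAGP-2, which bind fibrillins along the microfibril. MFAP2 (chromosome 1, 16974502 to 16980632, minus strand) had 203, 216 and 169 counts in DOX- replicates 1, 2 and 3. Its DOX+ counts were 194, 176 and 202 counts. All 3 DOX+ values lay within the DOX- range. On the CPM scale the log2 fold change was −0.087 (95% interval −0.38 to 0.21, edgeR adjusted p = 0.81), with −0.19 without DOX- replicate 3, −0.024 without DOX- replicate 2 and −0.038 without DOX+ replicate 2. MFAP5 (chromosome 12, 8637346 to 8662888, minus strand) had 34, 20 and 20 counts in DOX- replicates 1, 2 and 3, and 19, 19 and 17 counts in DOX+ replicates 1, 2 and 3. It was the only one of the 10 whose groups did not overlap in CPM, and its DOX+ values were the lower, where 20.3% of all features tested did not overlap (exact permutation p = 0.1, two-sided, a value below which 3 against 3 libraries cannot go). Of the 10, 0 lay higher without overlap (background 9.73%). DOX- replicate 1 alone was well above the rest. The log2 fold change was −0.48 (95% interval −1.29 to 0.33, edgeR adjusted p = 0.59) and moved to −0.15 without DOX- replicate 1. The interval held both 0 and a fall of the size measured for ZNF469, which at this depth could not be told from no change.

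**Figure D2:**
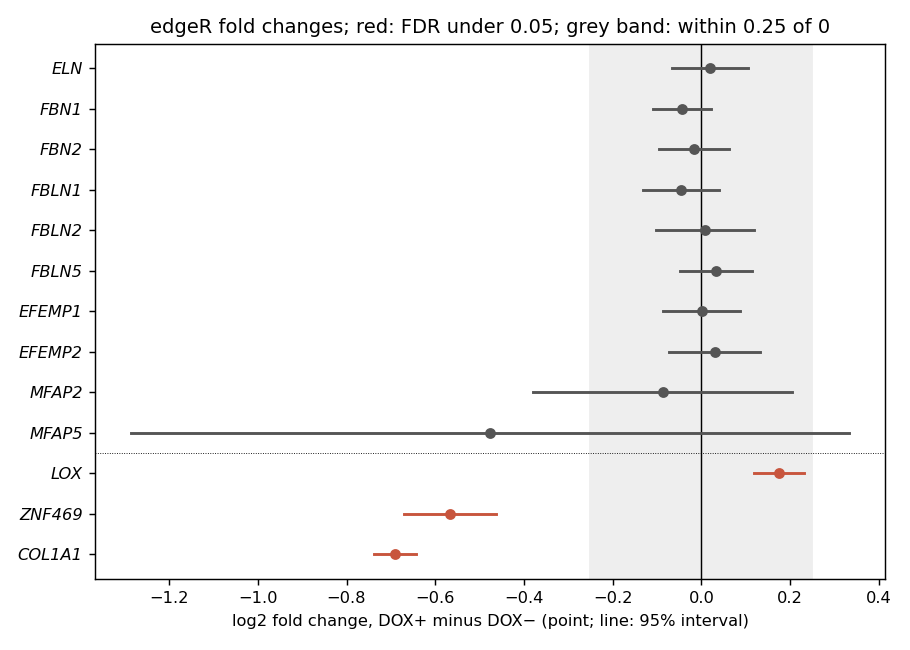
Log2 fold change of DOX+ against DOX- libraries (points) with the 95% interval (lines) from edgeR for the 10 genes above the dotted line and for LOX, ZNF469 and COL1A1 below it; the grey band spans 0.25 to each side of 0. The intervals of 8 of the 10 genes lie inside the band and all 10 include 0, while those of ZNF469 and COL1A1 lie wholly below the band. The LOX interval, 0.12 to 0.23, also lies inside the band but excludes 0, so lying in the band does not by itself mean no change.

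Levels of different genes can be compared only per transcript length, for which the authors' FPKM values were used. Within a gene, these did not follow the counts exactly. EFEMP1 had 4647 counts and 47.6 FPKM in DOX+ replicate 1, and 4439 counts and 40.5 FPKM in DOX+ replicate 3. Ranges and ratios of FPKM thus carry variation between libraries that is not in the counts. EFEMP2 had the highest level of the 10, at 197 ± 9.87 FPKM (SD over the 6 libraries), and made up 37.1% of the summed FPKM of the 10 genes. FBLN5 (83.1 ± 2.37 FPKM) and FBLN1 (69.7 ± 2.00 FPKM) followed, each above the next gene in all 6 libraries. ELN (49.7 ± 2.85 FPKM) and FBN1 (48.3 ± 0.713 FPKM) could not be ordered, since their ranges overlapped and ELN was the higher in 4 of 6 libraries. EFEMP1 (41.9 ± 3.03 FPKM) came next, with a range of 39.8 to 47.6 that reached the lowest FBN1 values, although FBN1 was the higher in each of the 6 libraries. FBN2 (25.2 ± 0.715 FPKM), FBLN2 (12.1 ± 0.516 FPKM), MFAP2 (3.98 ± 0.363 FPKM) and MFAP5 (0.208 ± 0.0972 FPKM) closed the order without overlap. FBN1 and ELN thus had overlapping FPKM ranges, FBN2 lay below both, and the genes for both microfibril-associated glycoproteins were at the bottom.

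**Figure D3:**
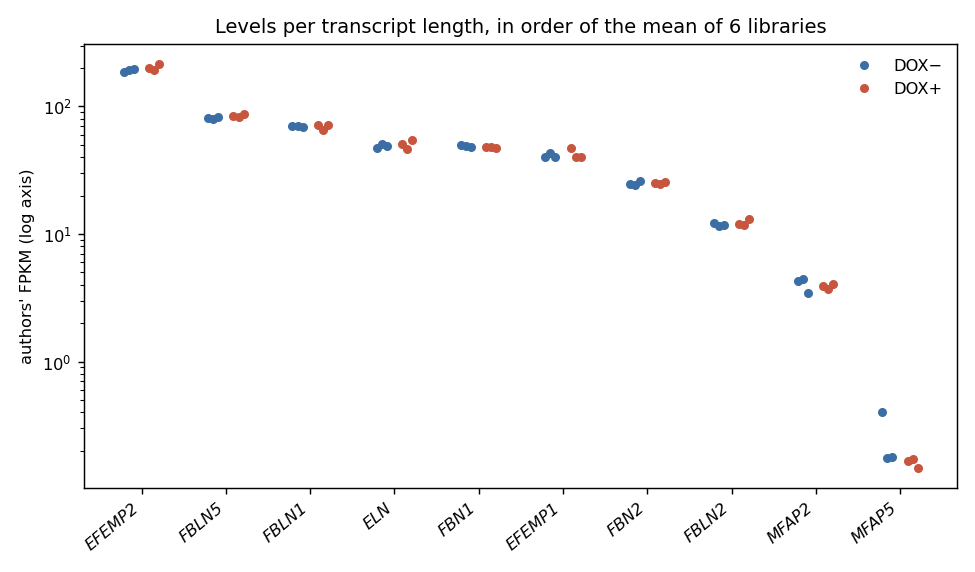
The authors' FPKM values of the 10 genes on a log axis, in falling order of the mean over 6 libraries, with DOX- libraries to the left and DOX+ libraries to the right of each position. ELN and FBN1 overlap, EFEMP1 reaches into the range of both, and the 2 groups lie on each other for all genes but MFAP5 and, narrowly, FBLN5.

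The balance between related genes was compared within each library as a ratio of FPKM values, for 7 ratios with p-values adjusted over them. The FBN2 level was 0.503, 0.493 and 0.543 of the FBN1 level in DOX- replicates 1, 2 and 3 and 0.530, 0.514 and 0.542 in DOX+ replicates 1, 2 and 3. Transcripts of the fetal-type fibrillin were therefore present at a mean of 0.513 ± 0.0264 (SD, n = 3) of those of FBN1 in DOX- cells and 0.529 ± 0.0144 (SD, n = 3) in DOX+ cells (two-sided exact permutation p = 0.5, adjusted p = 0.7). The FBLN5 to EFEMP2 ratio was 0.425 ± 0.0116 and 0.420 ± 0.0144 (SD, n = 3 each, exact permutation p = 0.7, adjusted p = 0.817). The EFEMP1 to EFEMP2 ratio was 0.214 ± 0.00892 and 0.212 ± 0.0244 (SD, n = 3 each, exact permutation p = 0.9, adjusted p = 0.9). The MFAP5 to MFAP2 ratio was 0.0942, 0.0399 and 0.0518 in the DOX- libraries and 0.0420, 0.0463 and 0.0365 in the DOX+ libraries (exact permutation p = 0.3, adjusted p = 0.7), with the groups overlapping. The ELN to FBN1 ratio was 1.01 ± 0.0424 in DOX- and 1.05 ± 0.0938 in DOX+ cells (SD, n = 3 each, exact permutation p = 0.5, adjusted p = 0.7).

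COL1A1, which codes for a chain of type I collagen, was lower in DOX+ cells (log2 fold change −0.69, 95% interval −0.74 to −0.64, edgeR adjusted p = 1.7e-09). The ratios to it were chosen with that fall known. ELN was at 0.0225, 0.0249 and 0.0234 of the COL1A1 FPKM in DOX- replicates 1, 2 and 3. In DOX+ replicates 1, 2 and 3 it was at 0.0378, 0.0359 and 0.0408. Every DOX+ ratio exceeded every DOX- ratio, by 1.62-fold on average (two-sided exact permutation p = 0.1, the lowest this design gives, adjusted p = 0.35). The FBN1 to COL1A1 ratio was 0.0235 ± 0.000591 in DOX- and 0.0363 ± 0.00107 in DOX+ cells (SD, n = 3 each), a 1.55-fold difference with no overlap (exact permutation p = 0.1, adjusted p = 0.35). In both ratios the numerator had not passed the test and the denominator had. These 2 ratios therefore restate the COL1A1 fall, and their p-values add no separate evidence.

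**Figure D4:**
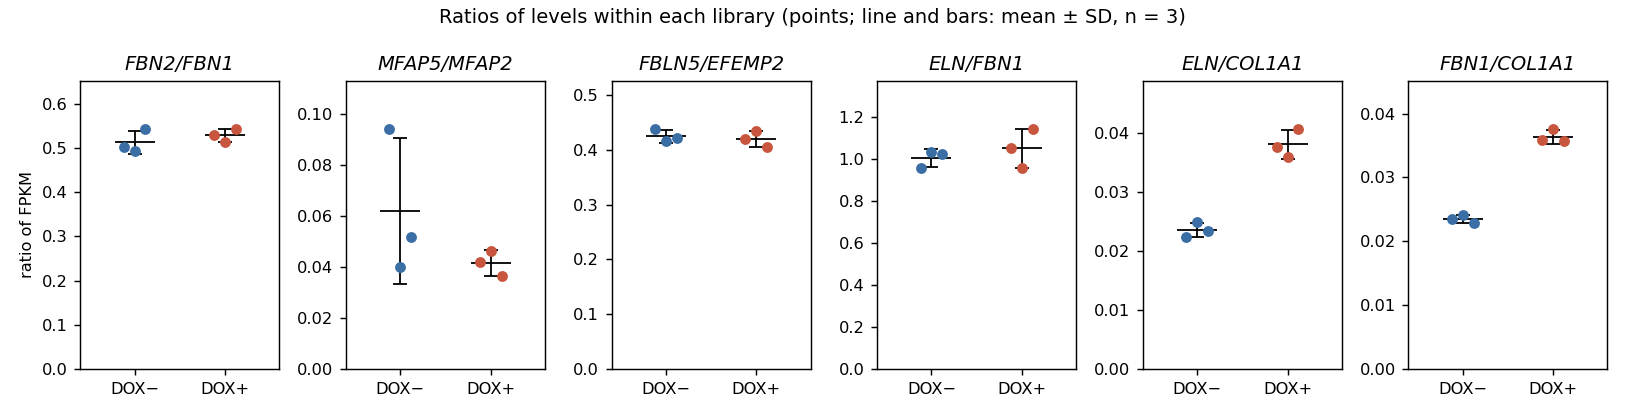
Ratios of FPKM values within each library (points), with the mean and SD over 3 libraries as a line and bars; each vertical axis starts at 0. The first 4 panels compare elastic fibre genes with each other and overlap between groups, while ELN/COL1A1 and FBN1/COL1A1 are higher in each DOX+ library than in each DOX- library.

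Genes that work with the 10 were taken from 8 lists of 65 genes, of which 49 had enough counts to test. At an FDR under 0.05 edgeR called 1 of the 49 higher and 0 lower, or 2.04%, beside 1.12% of all features tested. Their median log2 fold change was −0.00063, and the groups did not overlap for 13 of the 49, or 26.5%, where 20.3% of all features did not.

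The called gene was LOX, the lysyl oxidase that oxidises lysines of tropoelastin and collagen for crosslinking. It was measured at 1474, 1461 and 1433 CPM in DOX- replicates 1, 2 and 3. With doxycycline the libraries gave 1628, 1699 and 1605 CPM. Every DOX+ library was above every DOX- library, and LOX rose by a log2 fold change of 0.18 (95% interval 0.12 to 0.23, edgeR adjusted p = 0.0053), to 113% of the DOX- level. It kept an adjusted p under 0.05 in all 14 alternatives set out for the 10 genes, with 0.034 as the highest. Among the other lysyl oxidase genes, LOXL1, whose product acts mainly on elastin, was 0.10 higher on the log2 scale (edgeR adjusted p = 0.25), and LOXL2 had a log2 fold change of −0.077 (edgeR adjusted p = 0.28). LOXL3 (−0.040) and LOXL4 (−0.075) did not pass either. In the lists that follow, each gene with a value has an edgeR adjusted p over 0.05.

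Other glycoproteins of elastic fibres were tested for 7 of 9 genes, and 0 were called. Their median log2 fold change was 0.11, with 6 of 7 above 0, but 3 of the 7 (EMILIN2, EMILIN3 and FBLN7) were below 3 CPM in DOX- cells. EMILIN1, an elastin-microfibril interface protein, had the smallest p, with a log2 fold change of 0.092 (95% interval 0.018 to 0.16, edgeR adjusted p = 0.22). Of the better counted genes, HMCN1 (0.26, 95% interval 0.041 to 0.47, edgeR adjusted p = 0.25) and MFAP3 (0.11) were also above 0. They stood at 11.1 and 21.5 CPM in DOX- cells. MFAP4, which binds tropoelastin and fibrillin, was the only 1 below 0, with a log2 fold change of −0.046. The 4 latent TGF-β binding proteins, which anchor TGF-β to microfibrils, had log2 fold changes from −0.095 (LTBP2, edgeR adjusted p = 0.29) to −0.00063 (LTBP3), and 0 were called. Of the microfibril-binding ADAMTS and ADAMTSL proteins, 5 of 8 were tested and 0 called. ADAMTSL5 had the smallest p of these (log2 fold change −0.17, edgeR adjusted p = 0.40), and THSD4 (0.040), which promotes fibrillin-1 matrix assembly, was the most abundant at 95.5 CPM in DOX- cells.

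Of the 6 genes for chaperones, proteases and transporters of elastic fibre synthesis, 0 were called. FURIN, the protease that cleaves profibrillin, had the smallest p (log2 fold change 0.17, 95% interval 0.066 to 0.27, edgeR adjusted p = 0.12), and DESeq2 called it at an adjusted p of 0.0075. FKBP10, a chaperone of procollagen and tropoelastin, had a log2 fold change of −0.048, and the copper carriers ATP7A (0.14) and ATOX1 (−0.17), which serve lysyl oxidases with copper, differed in sign. Of 11 proteases that degrade elastin, 5 were tested and 0 called. MMP2 had a log2 fold change of −0.071 (edgeR adjusted p = 0.29), and the others tested were MMP14 (−0.037), CTSK (−0.21), CTSL (−0.082) and CTSV (0.48, at 0.877 CPM in DOX- cells). The elastases MMP7, MMP9, MMP12, CTSS, ELANE and PRTN3 did not reach the filter on low counts.

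Of the receptors that bind elastin or microfibrils, 10 of 11 were tested and 0 called. ITGAV, the integrin αv chain that binds the RGD site of fibrillin-1 and also activates latent TGF-β, came nearest to the threshold of all genes in these lists that missed it. It was measured at 240.2, 255 and 235 CPM in DOX- replicates 1, 2 and 3 and at 283, 302 and 263 CPM in DOX+ replicates 1, 2 and 3, without overlap. Its log2 fold change was 0.22 (95% interval 0.11 to 0.32, edgeR adjusted p = 0.059), and 5 of the 14 alternatives called it, DESeq2 among them (adjusted p = 0.00028). Of the 10 receptors tested, 7 had a log2 fold change above 0 and 3 below. Intervals also excluded 0 for ITGB3 (0.15, 95% interval 0.043 to 0.27) and ITGB1 (0.094, 95% interval 0.026 to 0.16). Among subunits of the elastin receptor complex, GLB1 stood at 0.018 and NEU1 at −0.071. CTSA stood at −0.11, with a 95% interval of −0.20 to −0.022 (edgeR adjusted p = 0.23). Of 11 growth factors held by microfibrils, 7 were tested and 0 called, with log2 fold changes of −0.029 for TGFB1 and −0.023 for TGFB2, while GDF11 had the smallest p (log2 fold change 0.13, edgeR adjusted p = 0.36).

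**Figure D5:**
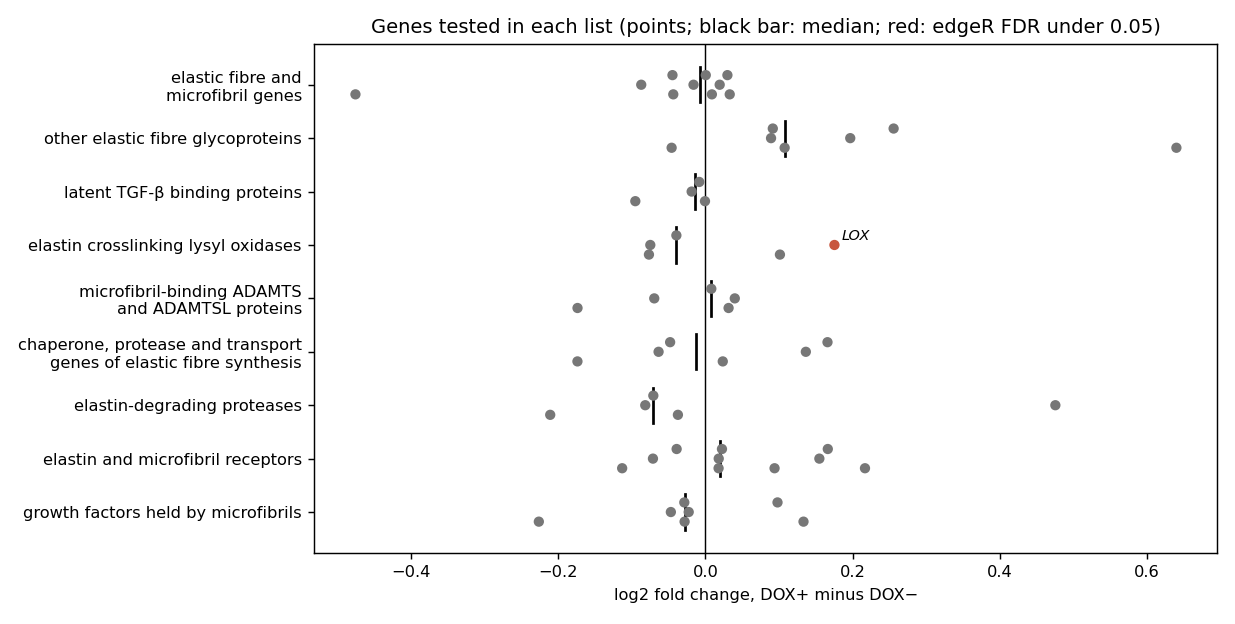
Log2 fold change of each gene tested (points) in the 10 elastic fibre and microfibril genes and the 8 lists of genes that work with them, with the median as a black bar; vertical offsets only separate points. LOX is the single gene past an FDR of 0.05, and the points farthest from 0, such as EMILIN3, MFAP5 and CTSV, have a DOX- mean under 1 CPM.

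Across the 6 libraries, the gene whose log2 CPM followed that of ELN most closely among 11725 features was TMEM140 (Pearson r = 0.991), followed by CNOT4 (0.987) and KANK2 (0.983). An r over 0.9 was reached by 58 features, or 0.495%. Among the 10 genes, EFEMP2 (0.876) and FBLN5 (0.741) came closest to ELN, and MFAP5 (−0.572) and FBN1 (−0.396) ran opposite to it. These values rest on 6 libraries that share the culture, depth and scaling, and on a range of ELN from 173 to 187 CPM, so they describe small deviations between libraries.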

How the data were processed

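RNA sequencing gave 3 DOX- and 3 DOX+ libraries with paired reads of 150 bp, made with the NEBNext Ultra II RNA kit in its non-directional form. Per the study's methods and the submitters' processing notes, quality-filtered reads were mapped by HISAT2 on GRCh38, with StringTie used afterwards; tool versions, the annotation release and the counting step are not given in the sources used here. The authors deposited whole counts without normalization and FPKM values per gene and library. Of the table's lines, 17 held stray annotation text and were dropped.

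DOX+ was compared with DOX- by edgeR 4.0.16 in R 4.3.3 (filterByExpr, minimum count 10, TMM factors 0.988 to 1.01, quasi-likelihood test, Benjamini-Hochberg adjustment over 13991 features). CPM divide by the TMM-scaled counts of the features tested. Intervals are the log2 fold change plus or minus its t quantile times a standard error taken as the absolute log2 fold change over the square root of F. Ratios use FPKM and exact two-sided permutation tests, which cannot go below p = 0.1 here. Alternatives used DESeq2 1.42.0, limma 3.58.1 (voom, and log2 of FPKM plus 0.1), other filters, scalings and thresholds, a transcript length trend (lowess span 0.3, GENCODE 44 lengths for 12771 of the features), the replicate number as a block, and each library left out; the FPKM test, the unadjusted p and the ratios to COL1A1 and of ELN to FBN1 were added after seeing the data. Named genes are the 10, ZNF469, in each list those called or otherwise the gene with the smallest p, and the 3 non-members most correlated with ELN (mean log2 CPM over 1); COL1A1, the markers and further list genes were named with their values known. The members and lists were chosen with earlier results of these data known. Coordinates come from GENCODE 44 (GRCh38). RefSeq promoter windows matched 7 of the 10 genes.

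In simulated counts for this comparison, 50 of 13991 genes were changed at each size, drawn from those with a mean count over 50. Of those changed by 0.25 on the log2 scale edgeR called 38%, and of those changed by 1 it called 92%. These shares average over levels and are not specific to genes as abundant as FBLN2. Of all calls, 9.2% were false, and the 95% intervals held the true value for 95.5% of genes. Chi-square tests of counts within groups gave 4.65 to 8.48 per degree of freedom, more than sampling noise, so every library was counted once. With 17 to 34 counts, MFAP5 is limited by sampling error.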

Additional observations from a re-analysis of the deposited data

How the results depend on the processing

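The count of elastic fibre and microfibril genes called stayed at 0 in all 14 alternatives, at both other thresholds and with FPKM. The smallest edgeR adjusted p of any of the 10 was 0.18, for FBN1 with the transcript length trend removed. The log2 fold change of FBN1 there was −0.091, against −0.044 in the main fit. MFAP5 was not tested with a filter of 1 CPM in 3 libraries, and DESeq2 gave no adjusted p for MFAP2 and MFAP5. ZNF469 kept an FDR under 0.05 in these 14 alternatives (−0.61 to −0.52 with each library left out), but its log2 fold change does not exceed 1 in size. Signs near 0 turned. FBN2 was 0.0045 with library size scaling and 0.019 with FPKM, EFEMP1 −8.8e-05 with limma-voom, FBLN2 −0.0088 with the length trend removed, and the FBLN5 to EFEMP2 ratio differed by 0.0040 in CPM. With each library left out, log2 fold changes ran from −0.012 to 0.044 for ELN, −0.067 to −0.028 for FBN1, −0.039 to 0.0067 for FBN2, −0.064 to −0.0069 for FBLN1, −0.034 to 0.041 for FBLN2, 0.013 to 0.056 for FBLN5, −0.026 to 0.018 for EFEMP1, −0.010 to 0.083 for EFEMP2, −0.19 to −0.024 for MFAP2 and −0.62 to −0.15 for MFAP5; the log2 differences of ratios ran from 0.016 to 0.086 for FBN2/FBN1, −0.76 to −0.14 for MFAP5/MFAP2, −0.042 to 0.0078 for FBLN5/EFEMP2, −0.10 to 0.064 for EFEMP1/EFEMP2, −0.00086 to 0.13 for ELN/FBN1, 0.64 to 0.73 for ELN/COL1A1 and 0.61 to 0.65 for FBN1/COL1A1.

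Over all features, 56 higher and 100 lower became 127 and 163 without a filter, 266 and 265 with DESeq2, 19 and 54 at an FDR under 0.01, 2 and 4 where the log2 fold change also had to exceed 1 in size, and 88 higher with library size scaling. With each library left out they ran from 20 to 69 higher and from 54 to 92 lower, with 20 and 54 without DOX+ replicate 1, 27 and 55 without DOX- replicate 1, 31 and 58 without DOX- replicate 3, and 33 higher without DOX- replicate 2; these fits used fewer samples. With the replicate number as a block, 135 were higher and 157 lower and 0 of the 10 genes were called. Over all features tested, no pairing by number was seen. Deviations of same-numbered libraries had correlations of −0.035 to 0.036, and those of differently numbered libraries −0.033 to 0.058. Such correlations cannot show whether a part of the features is paired. The cause of the shifts, that with the block included, was not tested. Depth limits MFAP2 and MFAP5.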
